A study of Mus musculus with 6 samples.

Results

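Imprinted genes are read mainly or only from the allele inherited from 1 parent, because DNA methylation laid down in egg or sperm at control regions survives fertilisation and silences the other allele. Most of them lie in domains, in which 1 control region, often with a long noncoding RNA, sets the activity of several genes, some read from the maternal and some from the paternal copy. They are best known for the control of fetal and placental growth, and their methylation can be lost when mouse embryonic stem cells are kept in culture. The list examined here holds 40 imprinted genes of the mouse, 18 read mainly from the maternal allele, 21 mainly from the paternal allele and 1, Gnas, with products of both. Several are imprinted only in certain tissues (Ube3a in neurons, Tssc4, Cd81 and Ppp1r9a chiefly in the placenta), and the deposited values do not separate the alleles. Inpp5f is counted as paternal because of a brain variant. Grb10 is counted as maternal, its expressed allele in most tissues, but is read from the paternal allele in neurons. Members were found by gene symbol in a table of 36699 rows: 38 of the 40 had a row, 34 of these were tested by the authors, and the 18114 rows tested in all serve as background.

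All libraries came from 1 line of mouse embryonic stem cells, A2Lox.cre, with a Flag-Lef1 transgene that doxycycline switches on; Lef1 is a transcription factor that acts with beta-catenin in Wnt signalling. They were grown as embryoid bodies, floating aggregates in which differentiation begins, and harvested on day 3. The plus_Dox group (3 libraries) had doxycycline for the last 24 h, and the minus_Dox group (3 libraries) was the same line, with the same transgene, without it. Polyadenylated RNA was sequenced, and the authors deposited 1 FPKM value per gene and group (fragments per kilobase of transcript, scaled to the fragments sequenced), so levels of genes can be compared per length, the depth of single libraries is unknown and values of single libraries were not used here. Effects of Lef1 and of doxycycline itself cannot be told apart, and since separate cultures are not stated for the libraries, the spread behind the authors' test may be technical. The Lef1 row, which sums transgene and endogenous transcripts where they share sequence, stood at 51.0 FPKM in plus_Dox and 7.56 FPKM in minus_Dox in the authors' deposited table. Pou5f1, the pluripotency factor Oct4, stood there at 1510 FPKM in plus_Dox and 820.2 FPKM in minus_Dox (q = 0.055), and all 8 pluripotency and epiblast markers examined reached 5 FPKM. Of these 3 were called higher and 1 lower, where 18.9% of all tested rows of at least 5 FPKM were called. Nanog (higher) and Sox2 (lower) kept their calls under both corrections of the folds used here, the subtraction of the median of all rows and the removal of a trend on transcript composition, and Dppa5a and Utf1 lost theirs under both. Fgf5 was called lower after the median subtraction only (log2 fold -0.50, q = 0.024).

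Of the 34 tested members, 3 rose and 3 fell in plus_Dox at a q-value under 0.05 in the authors' deposited table, and 28 did not pass. The rises were in Phlda2, Tssc4 and Cdkn1c, growth and RNA-processing genes that lie together in the Kcnq1 domain on distal chromosome 7. The falls were in Ube3a, Peg3 and Impact, genes of 3 other domains on chromosomes 7 and 18. None of the 6 reached 2-fold, and Ube3a came closest with a log2 fold of -0.999. The called share, 17.6% of the members, stands beside 12.2% of all tested rows (8.98% higher and 3.22% lower). At 5 FPKM or more in the higher group, 6 of 21 members were called, against 18.9% of all such rows. The median log2 fold of the members was 0.13, and that of all tested rows was 0.20.

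Transcript composition differed between called rows. Over all tested rows, the median GC content of the transcript was 55.7% among rises, 41.0% among falls and 49.9% among rows that did not pass. The median transcript length was 1580 nt among rises, 4870 nt among falls and 2740 nt among rows that did not pass. Among the members it was 1520 nt for the rises and 8690 nt for the falls. The 3 rises among the members have transcripts of 56.5% to 59.4% GC, and the 3 falls have transcripts of 36.9% to 46.8% GC. Peg3, at 46.8% GC, lay close to the median of 47.3% among the members that did not pass. Its transcript of 8694 nt was longer than their median of 4220 nt. After a smooth trend on GC content and length was removed from the folds of the authors' deposited table, none of the 34 members passed, while 2.16% of 17001 rows still did (1.28% higher and 0.888% lower). At an unadjusted p under 0.05, 3 members were then higher (Peg10, the Commd1 row and Ndn) and 3 lower (Peg3, Impact and Magel2). Phlda2, Tssc4, Cdkn1c and Ube3a were not among them. The log2 fold of Peg3 was then -0.47, against -0.64 as deposited, and that of Ube3a was -0.15, against -0.999. Peg10 came nearest to the threshold, with a log2 fold of 0.55 and q = 0.083 after the removal. When only the median log2 fold of 0.20 was subtracted, Phlda2 and Tssc4 remained higher and all 3 falls remained lower, beside 9.56% of all rows (3.47% higher and 6.1% lower).

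**Figure D1:**
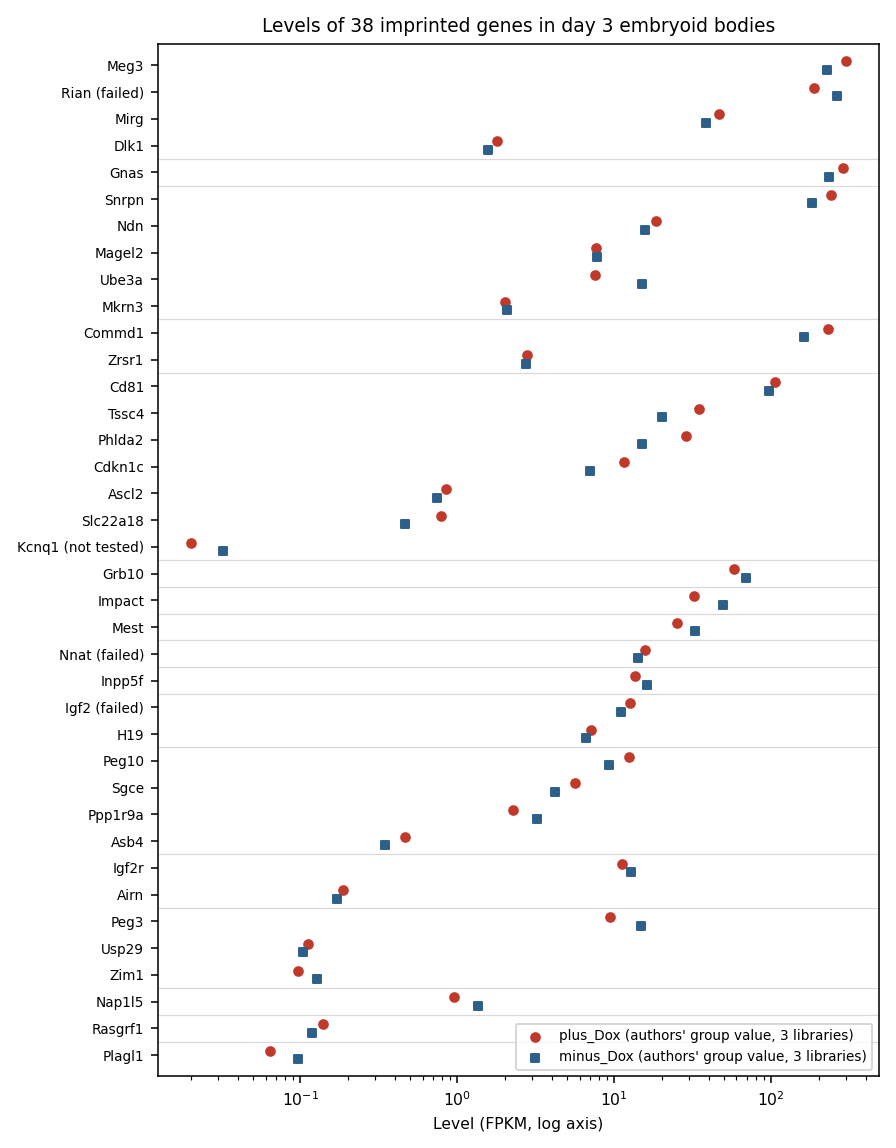
Level (FPKM, log axis) of the 38 imprinted genes with a row, grouped by domain and separated by grey lines, with plus_Dox as red circles above minus_Dox as blue squares; each point is the authors' single value for a group of 3 libraries, so no error can be drawn. Levels in plus_Dox run from 0.0200 FPKM for Kcnq1 to 301 FPKM for Meg3, and no gene that passed differs by more than 2-fold between the groups.

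Levels of the members spanned more than 3 orders of magnitude, and 21 of the 34 tested members reached 5 FPKM. In plus_Dox, the authors' deposited table puts Meg3 first with 301 FPKM, followed by Gnas with 288 FPKM, Snrpn with 239 FPKM, the row that joins Commd1 with B3gnt2 with 231 FPKM, Rian with 188 FPKM and Cd81 with 105 FPKM. In minus_Dox the same table gives 227 FPKM for Meg3, 234 FPKM for Gnas, 182 FPKM for Snrpn, 162 FPKM for the Commd1 row, 262 FPKM for Rian and 96.9 FPKM for Cd81. With 1 value per group, the order of neighbours in these lists could not be tested. At the low end, 8 tested members stayed under 1 FPKM in both groups, and 5 lay between 1 and 5 FPKM. None of these 13 passed, and in the authors' deposited table their folds of plus_Dox over minus_Dox ran from 0.664 to 1.70.

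The Kcnq1 domain held all the rises. Its control region lies in an intron of Kcnq1, a potassium channel gene, and drives the paternal noncoding RNA Kcnq1ot1, which silences its neighbours on that chromosome. Phlda2, whose protein restrains placental growth, had 28.7 FPKM in plus_Dox and 15.1 FPKM in minus_Dox in the authors' deposited table (chromosome 7, 150687449 to 150688446, mm9). Its level was 1.91-fold higher in plus_Dox (95% interval 1.47 to 2.47, log2 fold 0.93 with SE 0.19, q = 7.0e-05). Tssc4, whose human protein takes part in the assembly of a spliceosome particle, had 34.8 FPKM in plus_Dox and 20.03 FPKM in minus_Dox in the authors' deposited table (chromosome 7, 150255057 to 150280547). It was 1.74-fold higher (95% interval 1.32 to 2.29, log2 fold 0.80 with SE 0.20, q = 0.0023), and its locus also holds Trpm5. Cdkn1c, the cell cycle inhibitor p57Kip2, had 11.49 FPKM in plus_Dox and 7.02 FPKM in minus_Dox in the authors' deposited table (chromosome 7, 150644254 to 150646955). It was 1.64-fold higher (95% interval 1.26 to 2.13, log2 fold 0.71 with SE 0.19, q = 0.0046).

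The other maternally expressed genes of the domain did not pass. Slc22a18, a transporter gene between Cdkn1c and Phlda2, had 0.784 FPKM in plus_Dox and 0.460 FPKM in minus_Dox in the authors' deposited table (log2 fold 0.77 with SE 0.42, q = 0.25). Cd81, a tetraspanin gene, had 105 FPKM in plus_Dox and 96.9 FPKM in minus_Dox there, with a 95% interval of the fold from 0.858 to 1.38. Ascl2, a transcription factor gene needed by trophoblast, had 0.844 FPKM in plus_Dox and 0.738 FPKM in minus_Dox in the authors' deposited table. Kcnq1 itself was listed at 0.0200 FPKM in plus_Dox and 0.0321 FPKM in minus_Dox and was not tested, and Kcnq1ot1 was not analysed here. All 6 tested genes of the domain had a deposited log2 fold above 0, from 0.12 to 0.93, with a median of 0.74. After the composition trend was removed, Phlda2 stood at 0.22, Tssc4 at 0.15, Cdkn1c at 0.11 and Slc22a18 at 0.18, while Cd81 stood at -0.29 and Ascl2 at -0.44, with a median of 0.13. For comparison, all tested rows of at least 1 FPKM with a transcript GC content from 56% to 60% (1831 rows) had a median log2 fold of 0.51 as deposited.

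**Figure D2:**
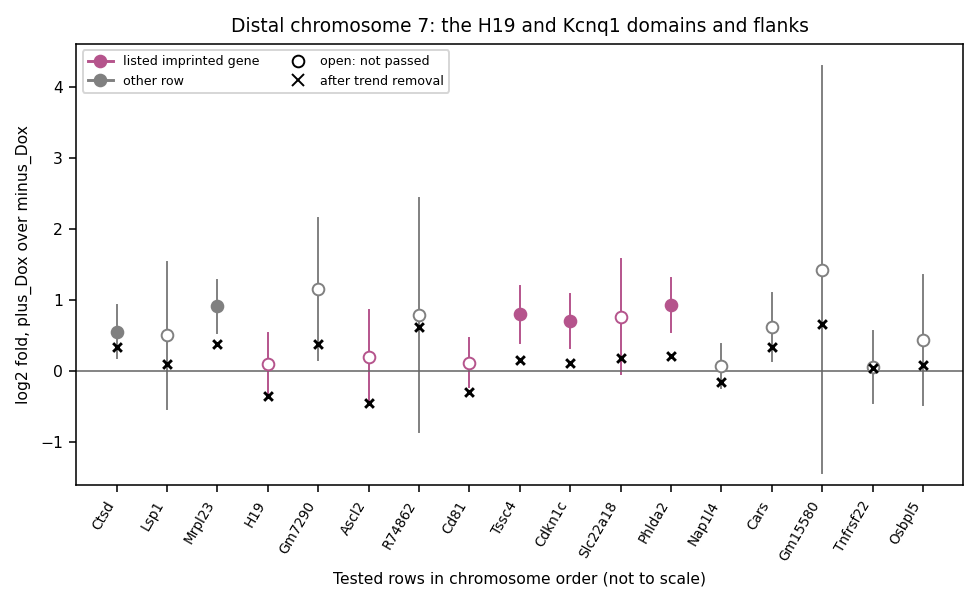
Deposited log2 fold of plus_Dox over minus_Dox for the tested rows of at least 0.5 FPKM on distal chromosome 7, from 250 kb before H19 to 250 kb after Phlda2, in chromosome order; bars are 95% intervals from the SE implied by the authors' test, filled circles passed and crosses are the folds after trend removal. Tssc4, Cdkn1c and Phlda2 passed, as did the flanking rows of Ctsd and Mrpl23, and the crosses of the listed genes lie between -0.44 and 0.22.

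The rows around the domain gave a measure of the region. Within 250 kb of its members, 8 tested rows named no gene of either imprinted list. None of them passed in the authors' deposited table, beside 12.2% of all tested rows called. At an unadjusted p under 0.05 in the authors' test, 2 were higher and 0 lower. Of the 8 rows, 4 stayed under 1 FPKM in both groups and 2 reached 5 FPKM. Their log2 folds were above 0 in 5 rows and below 0 in 3. Cars, 1 of these rows, had 51.5 FPKM in plus_Dox and 33.4 FPKM in minus_Dox in that table (log2 fold 0.62, q = 0.080). Nap1l4, a histone chaperone gene next to Phlda2 and imprinted itself in the placenta, had 82.3 FPKM in plus_Dox and 78.2 FPKM in minus_Dox there (log2 fold 0.07 with SE 0.16). At the other end, beside H19, the mitochondrial ribosomal protein gene Mrpl23 had 106 FPKM in plus_Dox and 56.4 FPKM in minus_Dox (log2 fold 0.91, q = 9.4e-05 in the authors' deposited table). Several genes of the domain are placental, so trophoblast markers were read beside it. Of 8 such markers 4 were tested, 1 of them Ascl2, itself a gene of the domain. None passed, beside 12.2% of all tested rows called, and none had an unadjusted p under 0.05 in the authors' test. Of the 4 tested markers, 3 stayed under 1 FPKM in both groups. Their summed level was 3.34 FPKM in plus_Dox and 3.08 FPKM in minus_Dox for all 4 in the authors' deposited table. The placental lactogen gene Prl3d1 was listed at 0 in both groups.

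Promoter sequences of 2 of the rises, both in the Kcnq1 domain, are shown. Whether the rises of these genes are linked was not tested. They cover the 250 bases before the RefSeq start on GRCm38.p6, a different build from that of the table, are written 5′ to 3′ on the gene's strand, and have every CG dinucleotide, the site of DNA methylation, in capitals. The Phlda2 window (chr7:143502525-143502774, minus strand) has 21 CG and the Tssc4 window (chr7:143069118-143069367, plus strand) has 17 CG. The median is 10.0 over 50 windows of 34 members, and 6.0 over all 32841 windows.
Phlda2: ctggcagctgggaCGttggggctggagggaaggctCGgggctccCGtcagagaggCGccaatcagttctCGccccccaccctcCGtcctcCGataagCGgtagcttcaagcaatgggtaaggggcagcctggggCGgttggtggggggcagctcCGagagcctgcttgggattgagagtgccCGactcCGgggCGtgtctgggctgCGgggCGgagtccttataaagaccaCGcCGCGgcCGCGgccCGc
Tssc4: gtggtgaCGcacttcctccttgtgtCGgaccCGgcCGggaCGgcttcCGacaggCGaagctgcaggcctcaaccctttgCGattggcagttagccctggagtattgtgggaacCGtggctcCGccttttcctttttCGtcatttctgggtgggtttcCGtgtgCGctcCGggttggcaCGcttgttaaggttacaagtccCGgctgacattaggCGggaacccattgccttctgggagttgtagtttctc

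Ube3a, the ubiquitin ligase gene whose maternal copy is missing in Angelman syndrome, fell furthest. It had 7.50 FPKM in plus_Dox and 15.0 FPKM in minus_Dox in the authors' deposited table (chromosome 7, 66484121 to 66562097, mm9). The 95% interval of the fold was 0.391 to 0.640 (log2 fold -0.999 with SE 0.18, q = 4.3e-06). Its transcript, 9856 nt with 36.9% GC, lies at the AT-rich end of the table, where the 514 tested rows of at least 1 FPKM from 36% to 40% GC had a median log2 fold of -0.51. After the trend was removed its log2 fold was -0.15 (q = 1).

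The paternally expressed genes of the same domain did not pass, and their difference from Ube3a was not tested. Snrpn, which encodes the splicing protein SmN, had 239 FPKM in plus_Dox and 182 FPKM in minus_Dox in the authors' deposited table (log2 fold 0.39 with SE 0.16, q = 0.10). Ndn, the gene of necdin, had 18.4 FPKM in plus_Dox and 15.6 FPKM in minus_Dox there (log2 fold 0.24 with SE 0.18, q = 0.46). Magel2, which like Ndn encodes a MAGE protein, had 7.64 FPKM in plus_Dox and 7.77 FPKM in minus_Dox in the authors' deposited table. Mkrn3, a ring finger gene, had 2.02 FPKM in plus_Dox and 2.06 FPKM in minus_Dox there. The 95% intervals of the fold for these 4 genes lay between 0.715 and 1.64. Snurf, which shares transcripts with Snrpn, was not analysed here.

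Peg3, a zinc finger gene of proximal chromosome 7 read from the paternal allele, had 9.42 FPKM in plus_Dox and 14.7 FPKM in minus_Dox in the authors' deposited table (6656602 to 6683132, mm9). The fold was 0.641 (95% interval 0.502 to 0.818, log2 fold -0.64 with SE 0.18, q = 0.0063). Its transcript has 46.8% GC and 8694 nt, and after the trend was removed the log2 fold was -0.47 (q = 0.22). Tested rows of at least 1 FPKM from 44% to 48% GC had a median log2 fold of -0.0049 (2308 rows). That median leaves out transcript length, which the removed trend also uses. Its neighbours Usp29, a ubiquitin protease gene transcribed the opposite way, and Zim1, a maternally expressed zinc finger gene, stayed at or under 0.127 FPKM in both groups in the authors' deposited table and did not pass.

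The promoter windows of 2 of the falls, built like those of Phlda2 and Tssc4, are shown beside them for comparison. The Ube3a window (chr7:59228500-59228749, plus strand) has 24 CG and the Peg3 window (chr7:6730420-6730669, minus strand), which lies at a methylation control region, has 8 CG. Whether the number of CG in a window goes with the direction of the fold was not tested.
Ube3a: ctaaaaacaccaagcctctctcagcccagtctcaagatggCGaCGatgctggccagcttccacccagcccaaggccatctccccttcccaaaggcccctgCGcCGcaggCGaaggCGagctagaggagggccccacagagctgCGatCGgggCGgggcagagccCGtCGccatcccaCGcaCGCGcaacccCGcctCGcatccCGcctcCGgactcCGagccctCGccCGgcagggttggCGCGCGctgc
Peg3: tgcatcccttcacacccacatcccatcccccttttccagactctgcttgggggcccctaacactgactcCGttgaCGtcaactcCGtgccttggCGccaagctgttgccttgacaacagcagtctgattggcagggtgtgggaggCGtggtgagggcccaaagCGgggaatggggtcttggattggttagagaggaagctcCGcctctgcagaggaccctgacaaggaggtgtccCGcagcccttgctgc

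**Figure D3:**
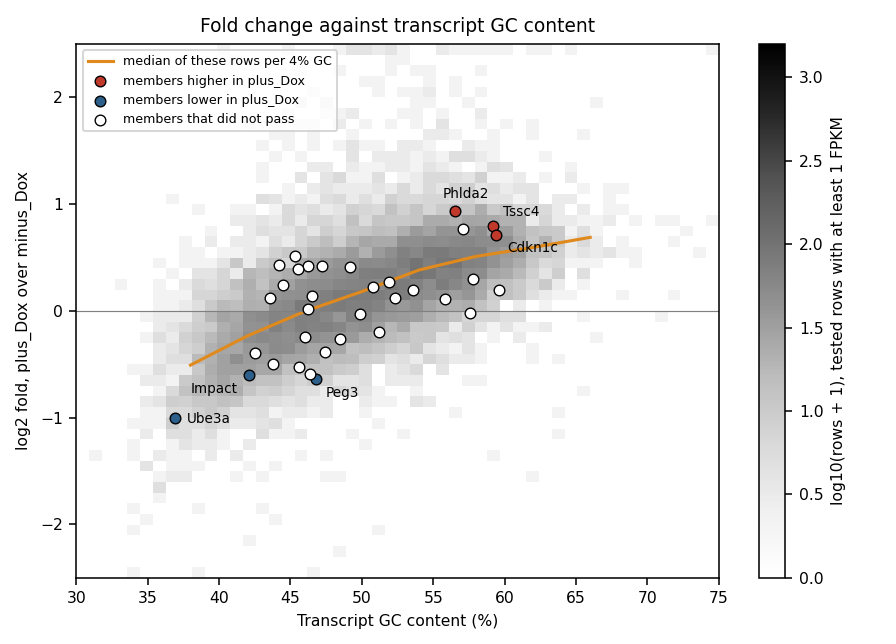
Deposited log2 fold of plus_Dox over minus_Dox against transcript GC content for tested rows of at least 1 FPKM (grey, folds beyond 2.5 drawn at the edge) and for the 34 tested members (circles), with the median of these rows per 4% GC in orange. Phlda2, Tssc4 and Cdkn1c lie at 56.5% to 59.4% GC, where the median is already above 0, and Ube3a lies at 36.9% GC, where it is below 0.

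Impact, on chromosome 18, encodes a protein that restrains the amino acid sensor kinase Gcn2. It had 32.4 FPKM in plus_Dox and 49.2 FPKM in minus_Dox in the authors' deposited table (13130760 to 13151457, mm9). The fold was 0.659 (95% interval 0.529 to 0.820, log2 fold -0.60 with SE 0.16, q = 0.0038), and after the trend was removed the log2 fold was -0.36 (q = 0.39).

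The Dlk1-Meg3 domain on chromosome 12 is known for RNAs of the maternal allele whose loss marks mouse pluripotent lines of poor developmental potential. These RNAs were abundant in both groups. Meg3, a long noncoding RNA, had 301 FPKM in plus_Dox and 227 FPKM in minus_Dox in the authors' deposited table, where its row also names Mir770 and Mir1906-1 (log2 fold 0.41 with SE 0.29, q = 0.45). Mirg, the host RNA of a microRNA cluster, had 46.5 FPKM in plus_Dox and 38.5 FPKM in minus_Dox there (log2 fold 0.27 with SE 0.18, q = 0.37). Rian, a host of small nucleolar RNAs, was listed at 188 FPKM in plus_Dox and 262 FPKM in minus_Dox in the authors' deposited table, but its test failed, so no comparison is made. Dlk1, a membrane protein gene read from the paternal allele, had 1.79 FPKM in plus_Dox and 1.56 FPKM in minus_Dox in that table (95% interval of the fold 0.622 to 2.10). No member of this domain passed.

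The growth factor domains of Igf2 and its receptor did not pass either. H19, the noncoding RNA of the maternal allele, had 7.08 FPKM in plus_Dox and 6.57 FPKM in minus_Dox in the authors' deposited table (95% interval of the fold 0.797 to 1.46). Igf2, the fetal growth factor read from the paternal allele, was listed at 12.6 FPKM in plus_Dox and 11.04 FPKM in minus_Dox there, with a failed test. Igf2r, the receptor that clears this factor, had 11.1 FPKM in plus_Dox and 12.8 FPKM in minus_Dox in the authors' deposited table (95% interval 0.676 to 1.13). Airn, the paternal RNA that overlaps Igf2r on the other strand, had 0.187 FPKM in plus_Dox and 0.170 FPKM in minus_Dox in that table, with an implied SE of 4, so nothing can be read from its fold. No strand-specific step is named in the labels, so reads from the overlap of Igf2r and Airn cannot be told apart. Grb10, an adaptor that dampens insulin and IGF signalling, had 57.6 FPKM in plus_Dox and 69.2 FPKM in minus_Dox in the authors' deposited table (95% interval of the fold 0.584 to 1.19).

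In the Peg10-Sgce domain on chromosome 6, none of 4 members passed. Peg10, a gene derived from a retrotransposon and needed for the placenta, had 12.4 FPKM in plus_Dox and 9.27 FPKM in minus_Dox in the authors' deposited table (log2 fold 0.42 with SE 0.18, q = 0.12). Sgce, the epsilon-sarcoglycan gene that starts beside it, had 5.64 FPKM in plus_Dox and 4.21 FPKM in minus_Dox there (log2 fold 0.42 with SE 0.24, q = 0.28). Both are read from the paternal allele, and after trend removal Peg10 stood at 0.55 and Sgce at 0.27. The maternally expressed Asb4 had 0.466 FPKM in plus_Dox and 0.345 FPKM in minus_Dox in the authors' deposited table, and Ppp1r9a, the gene of the actin-binding protein neurabin, had 2.25 FPKM in plus_Dox and 3.24 FPKM in minus_Dox (log2 fold -0.52 with SE 0.33, q = 0.37).

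Members that stand alone or in pairs did not pass, apart from Impact. Gnas, which encodes the stimulatory G protein alpha subunit among other products, had 288 FPKM in plus_Dox and 234 FPKM in minus_Dox in the authors' deposited table (95% interval of the fold 0.833 to 1.82), and its locus also holds Nespas. The row that joins Commd1, a copper homeostasis gene, with B3gnt2 had 231 FPKM in plus_Dox and 162 FPKM in minus_Dox there (log2 fold 0.51 with SE 0.22, q = 0.11). Zrsr1, a splicing factor gene within an intron of Commd1 and listed at the same locus, had 2.77 FPKM in plus_Dox and 2.73 FPKM in minus_Dox in the authors' deposited table. Mest, a hydrolase-like gene of mesoderm whose listed locus also holds Copg2, had 25.1 FPKM in plus_Dox and 32.8 FPKM in minus_Dox in that table (log2 fold -0.39 with SE 0.53). Inpp5f, a phosphoinositide phosphatase gene, had 13.6 FPKM in plus_Dox and 16.1 FPKM in minus_Dox in the authors' deposited table (95% interval of the fold 0.598 to 1.19). Nap1l5, of the nucleosome assembly protein family and inside Herc3, had 0.952 FPKM in plus_Dox and 1.35 FPKM in minus_Dox there. The zinc finger gene Plagl1 and the Ras exchange factor gene Rasgrf1 stayed under 0.14 FPKM in both groups in the authors' deposited table. Nnat, the neuronatin gene, was listed at 15.7 FPKM in plus_Dox and 14.2 FPKM in minus_Dox, with a failed test.

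Among the 15 members of at least 5 FPKM that did not pass, 14 had a 95% interval of the fold within 2-fold in both directions, and Mest was the exception. Their folds in the authors' deposited table ran from 0.764 to 1.43. A change of 2-fold was thus outside the interval for those 14, whereas for Plagl1, under 1 FPKM, the interval ran from 0.0899 to 4.91.

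**Figure D4:**
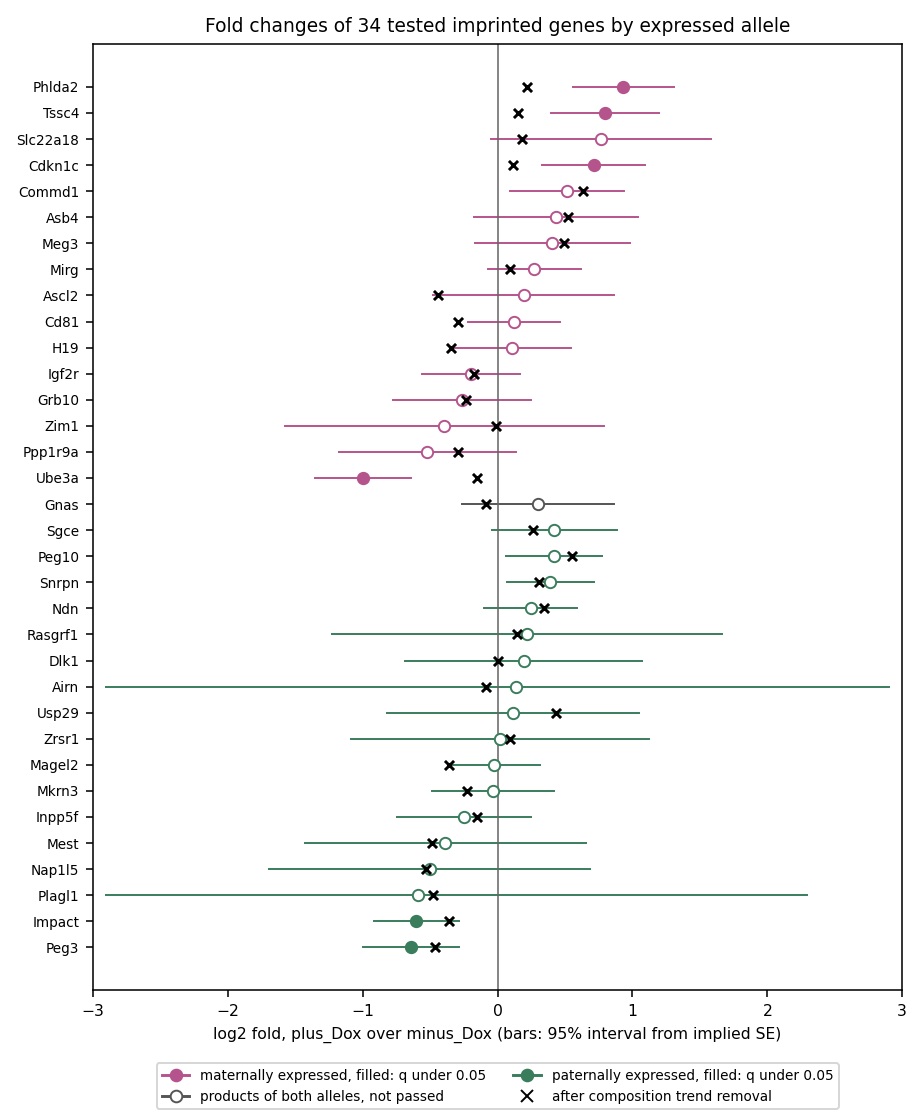
Log2 fold of plus_Dox over minus_Dox for the 34 tested imprinted genes, maternally expressed above, Gnas between and paternally expressed below, each sorted by fold; circles are deposited folds (filled where q was under 0.05), bars 95% intervals from the implied SE (those of Airn and Plagl1 are cut at the frame) and crosses the folds after trend removal. The filled circles are Phlda2, Tssc4, Cdkn1c, Ube3a, Impact and Peg3, and the crosses of Ube3a and of the rises lie nearer to 0 than their circles.

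By expressed allele, 3 of 16 tested maternally expressed members rose and 1 fell, against 0 rises and 2 falls among 17 paternally expressed members (2 higher and 2 lower at an unadjusted p under 0.05 in the authors' test). The background shares are those given above (8.98% higher and 3.22% lower). The median log2 fold in the authors' deposited table was 0.23 for the maternal group and 0.02 for the paternal group. The Kcnq1 domain supplied every maternal rise: outside it, the 10 tested maternal members had 0 rises (1 at an unadjusted p under 0.05), 1 fall and a median of -0.05. After trend removal the medians were 0.04 for the maternal group and -0.08 for the paternal group. These are descriptions of the lists without a test, and since single alleles were not measured, a change in allele use could not be recognised as such.

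Genes outside the list gave a further comparison. Of 45 other imprinted genes, 33 were tested. At the same threshold 1 rose and 1 fell (6.06%, against 12.2% of all rows), and the median log2 fold in the authors' deposited table was 0.01. The fall was in Zdbf2, a paternally expressed gene of chromosome 1, with 2.91 FPKM in plus_Dox and 7.11 FPKM in minus_Dox in the authors' deposited table (log2 fold -1.29 with SE 0.18, q = 7.0e-11). It remained lower after trend removal, at a log2 fold of -0.89 (q = 7.5e-05), the only call of either imprinted list under that setting. The rise was in Slc22a3, a transporter gene beside Igf2r that is imprinted in the placenta, with 0.960 FPKM in plus_Dox and 0.475 FPKM in minus_Dox in the authors' deposited table (log2 fold 1.01 with SE 0.26, q = 0.0021, and 0.81 with q = 0.069 after trend removal). At an unadjusted p under 0.05 in the authors' test, 4 of the 33 were higher and 3 lower. After median subtraction 1 was called higher and 3 lower, beside 3.47% and 6.1% of all rows. The 3 were Zdbf2, Calcr (q = 0.0165) and Casd1 (q = 0.0225). Leaving out the genes of both imprinted lists, Slc22a3 and Nap1l4 among them, 100 tested rows lay within 250 kb of the members. Of these 8 rose and 1 fell, or 9.00%, against 12.2% of all rows. Of the 100 rows, 38 stayed under 1 FPKM in both groups.

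Genes that keep imprints through DNA replication and early development were read as well. Of 19 such genes 17 were tested, and 14 of these reached 5 FPKM. Among the 17, 0 rose and 1 fell (5.88%, against 12.2% of all rows and 18.9% of all tested rows of at least 5 FPKM). At an unadjusted p under 0.05 in the authors' test, 0 were higher and 2 lower, Zfp445 and the chromatin remodeller gene Hells (log2 fold -0.63, q = 0.19). The gene that passed, Zfp445, is a zinc finger gene that protects imprints in mouse and human. It had 9.17 FPKM in plus_Dox and 14.8 FPKM in minus_Dox in the authors' deposited table (log2 fold -0.69 with SE 0.18, q = 0.0023). Zfp445 remained lower after median subtraction (log2 fold -0.89, q = 3.6e-05) and lost its call after trend removal (log2 fold -0.38, q = 0.44). Its partner in this role, Zfp57, had 23.8 FPKM in plus_Dox and 19.01 FPKM in minus_Dox there, and the maintenance methyltransferase gene Dnmt1 had 39.4 FPKM in plus_Dox and 37.1 FPKM in minus_Dox in that table. Neither passed.

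Since H19, Igf2, Mest, Dlk1 and Grb10 are high in many fetal fibroblasts, on which the stem cells had been grown before the embryoid bodies were formed, fibroblast markers were read too. Of 12 such markers 10 were tested and none passed, beside 12.2% of all tested rows called. At an unadjusted p under 0.05 in the authors' test, 3 were higher and 1 lower. Of the 10 markers, 5 stayed under 1 FPKM in both groups and 1 reached 5 FPKM. Their summed level was 24.2 FPKM in plus_Dox and 18.6 FPKM in minus_Dox in the authors' deposited table. Most of this was Thy1, with 16.6 FPKM in plus_Dox and 11.9 FPKM in minus_Dox there, and the markers went in both directions. The collagen gene Col1a1 had 1.32 FPKM in plus_Dox and 0.888 FPKM in minus_Dox in that table. Pdgfra, a growth factor receptor gene of fibroblasts, had 0.988 FPKM in plus_Dox and 1.41 FPKM in minus_Dox in the authors' deposited table (q = 0.11, and 0.015 after median subtraction), and Pdgfrb had 0.678 FPKM in plus_Dox and 0.793 FPKM in minus_Dox. Of 10 extraembryonic endoderm markers 9 were tested and 1, Sox17, rose (11.1%, against 12.2% of all rows), with a summed level of 126 FPKM in plus_Dox and 107 FPKM in minus_Dox in the authors' deposited table. Sox17 lost its call after median subtraction (q = 0.24) and after trend removal (q = 0.68), and Gata6 was then called lower after trend removal (log2 fold -0.71, q = 0.030). Of 7 mesoderm markers 5 were tested and 3 rose, T, Mixl1 and Twist1 (8.98% of all rows were called higher), with a summed level of 8.40 FPKM in plus_Dox and 2.32 FPKM in minus_Dox in the authors' deposited table. T and Mixl1 kept their calls under both corrections, and Twist1 lost its call after median subtraction (q = 0.13) and after trend removal (q = 1). Of 7 neural markers, read because Ube3a is imprinted in neurons, 2 were tested. None passed, beside 12.2% of all rows called, and 1 of the 2 was higher at an unadjusted p under 0.05 in the authors' test. Their levels went in opposite directions in the authors' deposited table, with 31.0 FPKM in plus_Dox and 22.5 FPKM in minus_Dox for Nes, and 0.604 FPKM in plus_Dox and 1.31 FPKM in minus_Dox for Pax6, whose implied SE was 2.24. The part of these cell types in the imprinted gene results was not tested, and in bulk RNA fewer cells of a type and less RNA per cell cannot be told apart.

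Promoter windows of the members were searched for CTTTGA, the core of the Lef1 recognition sequence, on both strands of the 250 bases before each start. It occurs in 3 of 50 member windows (6.00%) and in 13.8% of all 32841 windows. The windows that hold it belong to Meg3 (chr12:109540932-109540961, plus strand), Commd1 (chr11:22982493-22982522, minus strand) and Igf2 (chr7:142667006-142667035, minus strand). The rows of Meg3 and Commd1 were tested and did not pass, and the test of Igf2 failed, so it could not be called. The match is shown in capitals with its surroundings.
Meg3: aatgcgctgacgTCAAAGaccaccccttct
Commd1: cagcgatcgttcCTTTGAgtgcgcatttgc
Igf2: tatccccatttgTCAAAGtgtgtgacagtc
The hexamer TGCCGC, which the imprint protector Zfp57 binds when methylated, occurs in 6 of 50 member windows (12%), belonging to 5 genes, and in 8.68% of all windows. Those 5 genes are Mest, Nap1l5, Zim1, Plagl1 and Meg3, none of which passed in the authors' deposited table. Cdkn1c and Impact had no window in the RefSeq table.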

How the data were processed

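RNA from 3 plus_Dox and 3 minus_Dox libraries (groups from the sample titles) was compared. Per the submitters' processing notes the tools were TopHat2 2.0.8, Bowtie, Picard, Cufflinks 2.0.2 and Cuffdiff with build mm9, no roles given. Per the file headers the authors deposited 1 FPKM value per gene and group, a log2 fold of plus_Dox over minus_Dox, a test statistic (a score whose sign runs opposite to the fold), and the p-value and q-value of the authors' test. Coordinates are printed as deposited, and several genes can share a locus. The table holds 0 columns of single libraries, so no test over libraries was run here, no library was left out and the depth is unknown; every test below rests on the authors' folds and statistics. Rows of status OK were compared at a q-value threshold of 0.05. The SE is the size of the log2 fold over the size of the statistic, and 95% intervals follow from it.

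The composition trend was fitted by weighted least squares with cubic splines (6 knots each) on GC content and log2 length of the longest basic transcript per symbol in GENCODE vM21, known for 17001 of 17830 rows with a finite fold and for all 34 tested members. Residual folds were tested against the implied SE, with Benjamini-Hochberg adjustment. The procedure was tested on simulated data with planted changes larger than the fold of any tested member. Whether it keeps changes as small as those of the members was not tested. Promoters came from RefSeq on GRCm38.p6 and matched 34 of 40 members. Every member was accounted for, and those that were called or reached 5 FPKM are given in full. The members, lists and alternatives were chosen with earlier results of these data known. Calculations used Python 3.11.15, numpy 2.4.6, pandas 2.3.3 and scipy 1.17.1.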

Additional observations from a re-analysis of the deposited data

How the results depend on the processing

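At q-value thresholds of 0.01 and 0.1, with minima of 1 and 5 FPKM and in rows of 1 gene, the counts stayed at 3 rises and 3 falls. Subtraction of the median log2 fold of 0.20 left 2 rises and 3 falls, with Cdkn1c at 0.51 (q = 0.073). A 2-fold minimum left 0 rises and 0 falls. Removal of the composition trend also left 0 and 0: Phlda2 stood at 0.22, Tssc4 at 0.15, Cdkn1c at 0.11, Peg3 at -0.47, Impact at -0.36 and Ube3a at -0.15. The cause of the composition trend was not tested.

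The median log2 fold of all tested members, 0.13, was 0.24 at 5 FPKM or more, -0.072 after median subtraction and -0.049 after trend removal. That of the maternal group, 0.23, was 0.12 on the log2(FPKM + 1) scale, 0.033 after median subtraction and 0.039 after trend removal. That of the paternal group, 0.02, was -0.18 after median subtraction and -0.084 after trend removal. The directions of several members that did not pass turned: after median subtraction Airn stood at -0.065, Ascl2 at -0.0066, Cd81 at -0.08, Dlk1 at -0.0065, H19 at -0.093, Usp29 at -0.084 and Zrsr1 at -0.18. After trend removal Airn stood at -0.084, Ascl2 at -0.44, Cd81 at -0.29, Gnas at -0.086 and H19 at -0.34.

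No paired analysis was possible because the table holds no column of a single library. For the same reason no replicate was left out.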
